A study of Mus musculus with 36 samples.

Results

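Mouse pancreatic fibroblasts cultured with the tumour line KPC1 were compared with the same kind of fibroblast cultured with each of 7 clonal tumour lines, named E, H, K, M, N, T and V. Libraries were taken by the line named in their labels, which gave 4 libraries for KPC1 and 4 for each clone, 32 of the 36 libraries in the series. The other 4 were fibroblasts kept without tumour cells (mono-culture), whose values are set beside the results. The fibroblasts were of the C57BL/6 strain. In every co-culture they shared a dish for 48 h with tumour cells that carried GFP, and the GFP-bearing tumour cells were then removed by flow sorting. Per the study's methods, the clones were single-cell lines taken from a polyclonal line of 1 pancreatic tumour, from a mouse with conditional mutant alleles, Trp53 among them, and Pdx1-Cre, a recombinase made in the pancreatic lineage. The labels do not say what KPC1 is or how it relates to the clones. KPC1 is therefore 1 line, each clone is 1 line, and the tests compare libraries of these lines. No label says that the 4 libraries of a group came from separate cultures, so p-values measure the spread between libraries, which may be technical.

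Pancreatic fibroblasts make the collagen-rich stroma of pancreatic tumours. Tumour cells, through contact and through the factors they secrete, move fibroblasts out of a resting state, and the states they reach include a contractile, matrix-making state tied to TGF-β and an inflammatory state tied to NF-κB, in which they release cytokines and chemokines. Cells short of amino acids, or with unfolded protein in the endoplasmic reticulum (ER), raise the transcription factor ATF4, which switches on genes for amino acid synthesis, uptake and tRNA charging, and they raise ER chaperones such as the protein encoded by Hspa5.

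Library totals were 1.66e7 to 1.98e7 counts for KPC1 and 1.25e7 to 2.20e7 over the 36 libraries. Levels below are CPM, the counts of a gene per 1e6 counts of its library, after scaling by TMM, the trimmed mean of M-values, which corrects for differences in composition. The fibroblast label was checked on 12 markers, among them Pdgfra, Col1a1 and Dcn. All 12 were detected, with a summed level of 12898 to 16628 CPM with KPC1, 11099 to 32453 with the clones (median 21905) and 21957 to 23760 in mono-culture. By the edgeR test against the mean of the clones given below, 7 of the 12 were lower and 3 higher with KPC1 (median log2 fold change -0.73). Over all genes tested, 18.8% were lower and 22.3% higher. For 6 of the 12 the KPC1 mean lay below all 7 clone means. The haematopoietic marker Ptprc and the macrophage markers Fcgr1, C1qa, C1qb and Tyrobp were at 0 in the 4 KPC1 libraries, and the 11 genes of the macrophage list found in the file summed to 12.7 to 24.4 CPM with KPC1, 5.63 to 33.5 CPM with the clones and 13.7 to 16.6 CPM in mono-culture. Of 26 epithelial markers, Cldn4, Esrp1 and Prom1 were among those at 0 with KPC1, but the summed level was 671, 219, 414 and 337 CPM in KPC1 replicates 1 to 4, 32.7 to 930 CPM with the clones (median 309) and 10.8 to 13.8 CPM in mono-culture. Epithelial transcripts were thus present in the sorted fibroblasts of every co-culture, and KPC1 lay inside the range of the clones. In bulk RNA, fewer cells of a type and less RNA per cell cannot be told apart. Along the first 2 principal components of the 32 co-culture libraries (35.5% and 15.7% of the variance), KPC1 replicate 4 stood apart from replicates 1 to 3, and replicate 1 held the highest KPC1 level of many inflammatory genes, so results that turn on these libraries are given with and without them. Libraries of different lines with the same replicate number shared some of their level: replicate 4 had the lowest mean of the ATF4 target list in 8 of the 8 lines and of the basement membrane list in 7.

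The first question was how far the fibroblasts of the KPC1 co-culture stood from those of each clone. With edgeR's quasi-likelihood test and Benjamini-Hochberg adjustment, KPC1 differed from clone H in 417 of 14439 genes (2.89%, 242 higher and 175 lower with KPC1), from clone T in 774 (5.36%) and from clone V in 1550 (10.7%). It differed from clone N in 5102 genes (35.3%), from clone E in 5806 (40.2%), from clone M in 8011 (55.5%) and from clone K in 8103 (56.1%). The size of the differences gave a like order, since the log2 fold changes of all tested genes had a root mean square of 0.50 against H, 0.51 against T, 0.59 against V, 0.73 against N, 0.76 against E, 0.98 against M and 1 against K. KPC1 fibroblasts were thus nearest to those of clones H, T and V by both measures, and farthest from those of K and M.

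**Figure D1:**
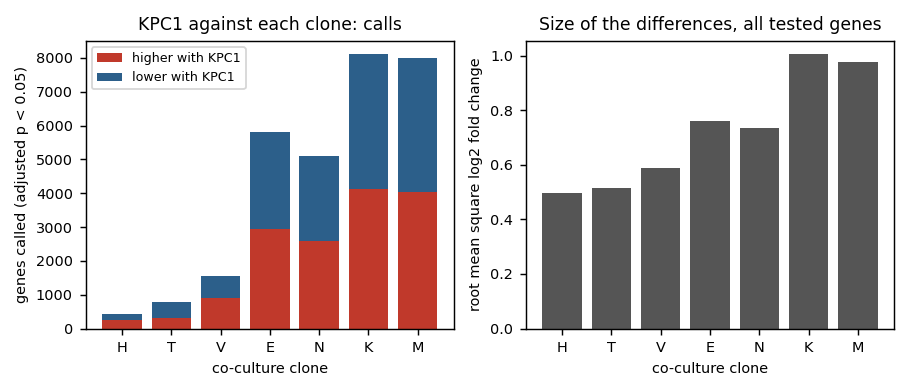
Genes called between KPC1 and each clone (left, adjusted p under 0.05, higher with KPC1 in red and lower in blue) and the root mean square of the log2 fold changes of the 14439 tested genes (right). The bars for clones H, T and V are the lowest in both panels, at 417, 774 and 1550 genes, and those for K and M the tallest, at 8103 and 8011.

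Against the mean of the clones, each weighted by 1/7, 5929 genes (41.1%) differed, 3215 (22.3%) higher and 2714 (18.8%) lower with KPC1. Fold changes were mostly small. The median absolute log2 fold change of the 5929 was 0.45, and 327 genes rose and 574 fell by at least 2-fold. Of the genes called, 3445 (58.1%) had a KPC1 mean beyond all 7 clone means, and for the other 2484 KPC1 lay among the clones. Over all genes tested, the KPC1 mean was above every clone mean in 2325 (16.1%) and below every clone mean in 2521 (17.5%). When the counts of each line were summed, so that the 7 clones became the replicates against a single KPC1 value, no gene passed edgeR's test (16892 tested, 696 at an unadjusted p under 0.05, smallest adjusted p 0.66). The calls therefore set the KPC1 libraries apart from these clone libraries and do not set KPC1 apart from clones in general.

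The stricter question was which genes set KPC1 beyond each of the clones. In 32 genes (0.222%) KPC1 differed from all 7 clones in the same direction, 13 higher (0.09%) and 19 lower (0.132%), and in 43 genes (0.298%) its 4 libraries lay beyond all 28 clone libraries, 24 above and 19 below. Only 10 genes met both. These counts were not unusual for a line of this set. Counted in the same way against the other 7 lines, genes beyond each of them numbered 73 for clone K, 50 for M, 23 for V, 22 for N, 9 for T, 2 for E and 1 for H, and genes with separated libraries 208 for M, 146 for K, 65 for V and 42 for N. The count also depended on single libraries. It was 3 without KPC1 replicate 1, 8 without replicate 2, 58 without replicate 3 and 81 without replicate 4, of which 3, 6, 28 and 25 were among the 32. It was 7 without clone T replicate 1, and 8 without clone H replicate 1 or replicate 2.

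Hspa5, which encodes the ER chaperone BiP (GRP78), was the most abundant gene of this set by its KPC1 mean. It was at 1526, 1452, 1099 and 1235 CPM in KPC1 replicates 1 to 4, while the lowest, median and highest of the 28 clone libraries were at 394, 646 and 1044 CPM and mono-culture averaged 460.5 CPM. Every KPC1 library lay above every clone library, and the nearest clone mean was that of V. The log2 fold change over the mean of the clones was 1.02 ± 0.12 (SE, edgeR adjusted p = 2.2e-07), and it passed the test without any of the KPC1 replicates (adjusted p at most 1.7e-05).

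Hspa5 lies on chr2:34771970-34777547 (plus strand, mm10), and its promoter holds the ER stress response element, the joint site of NF-Y and ATF6, searched on both strands as CCAAT and CCACG with any 9 bases between them. In RefSeq promoter windows (GRCm38.p6, 250 bases before to 50 after the start), these letters were found in 14 of 9989 tested genes (0.14%), of which 7 were among the 14 ER chaperone genes with a window: Hspa5, Hsp90b1, Calr, Canx, Pdia6, Dnajc3 and Creld2. Among the 2292 genes with a window that were called higher with KPC1 than the mean of the clones, 3 held it (0.131%). The sites of Hspa5 (chr2:34772005-34772063, plus strand) and of Hsp90b1, the gene of the ER chaperone GRP94 (chr10:86705513-86705676, minus strand), are shown 5′ to 3′ with the element in capitals, because both carry it and their levels differ in how far KPC1 stands out:
Hspa5: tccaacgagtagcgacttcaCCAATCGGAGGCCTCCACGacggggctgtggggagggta
Hsp90b1: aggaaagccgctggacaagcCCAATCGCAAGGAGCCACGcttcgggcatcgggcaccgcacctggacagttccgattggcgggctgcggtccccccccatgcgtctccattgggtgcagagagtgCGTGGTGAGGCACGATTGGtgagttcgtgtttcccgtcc

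The carriers of the element did not move alike. Hsp90b1 was at 1278, 1280.4, 1187 and 1312 CPM with KPC1, inside the clone libraries at 836 to 1466 CPM, and its log2 fold change was 0.21 ± 0.07 (edgeR adjusted p = 0.015). Dnajc3, a co-chaperone of BiP, was lower with KPC1 (-0.19 ± 0.061, adjusted p = 0.012), and neither call passed without KPC1 replicate 1 (adjusted p = 0.062 and 0.086). The log2 fold changes of Pdia6 (0.16 ± 0.069), Canx (0.036 ± 0.066), Creld2 (0.02 ± 0.085) and Calr (-0.23 ± 0.10) did not pass the test. Over the 16 ER chaperones and folding factors tested, 9 were higher and 1 lower, the median log2 fold change was 0.20 beside 0.0054 over all genes, and 4 lay above and 2 below all 7 clone means. Without KPC1 replicate 1 the count of higher genes fell from 9 to 5, namely Hspa5, Hyou1, Manf, Xbp1 and Dnajb9. Manf, a secreted ER stress protein, was at 128, 118, 121 and 135 CPM with KPC1 and at 63.5, 87 and 124 CPM in the lowest, median and highest clone library. Its KPC1 libraries overlapped only the top of the clone range, and its log2 fold change was 0.53 ± 0.076 (adjusted p = 4.1e-06). Xbp1, a transcription factor of the unfolded protein response, was at 106, 89.6, 93.3 and 84.6 CPM with KPC1 against 44.7, 69.6 and 93.9 CPM. Replicate 1 was above all clone libraries and the others at their upper end (0.45 ± 0.073, adjusted p = 1.8e-05).

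**Figure D2:**
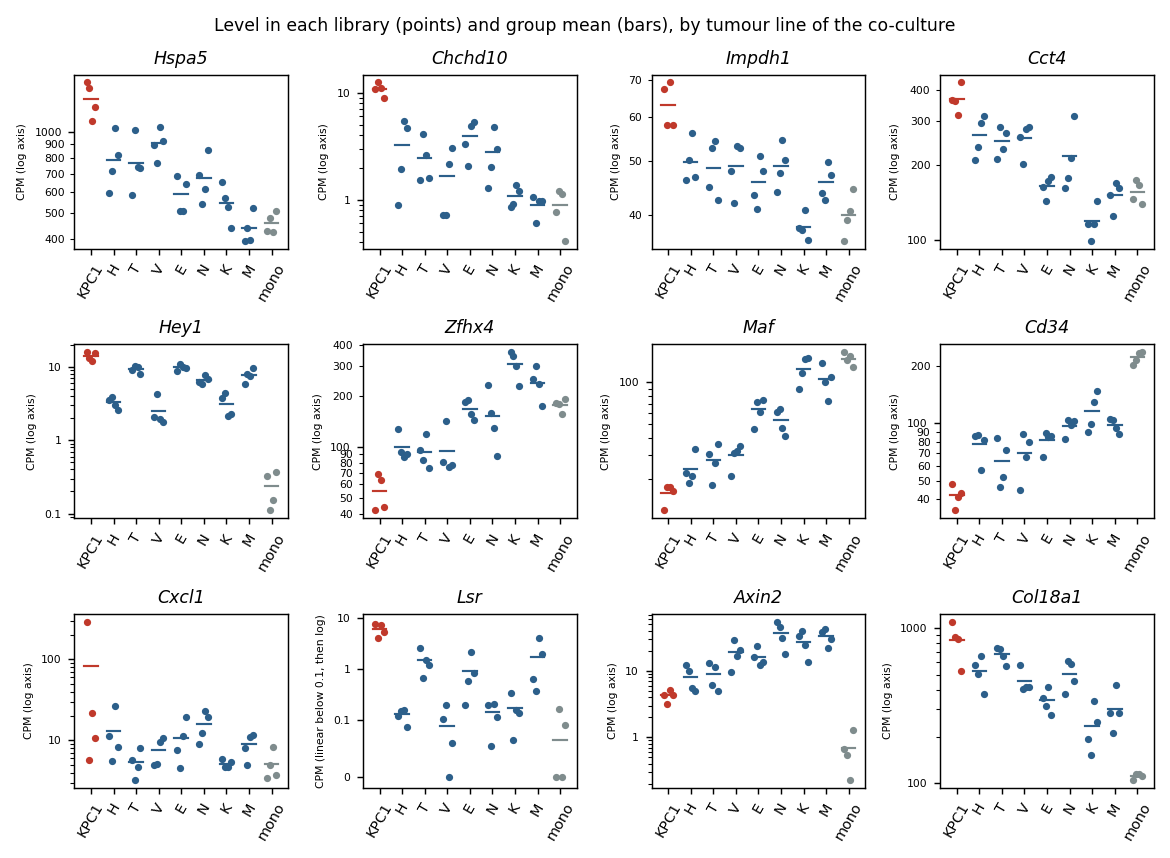
CPM of 12 genes in each library (points) and the group mean (bars) for KPC1 (red), the 7 clones (blue, H, T and V first) and mono-culture (grey). Axes are logarithmic, except that the axis of Lsr is linear below 0.1 CPM. The KPC1 points lie above all clone points for Hspa5, Chchd10, Impdh1, Cct4, Hey1 and Lsr and below them for Zfhx4 and Maf, while for Cxcl1 replicate 1 alone, at 292 CPM, lies above the clones.

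Protein folding in the cytosol was represented by the chaperonin TRiC, the ring that folds actin and tubulin. Cct4, which encodes 1 of its subunits, was at 363, 359.9, 317 and 428 CPM with KPC1 and at 98.7, 189.6 and 315 CPM in the lowest, median and highest clone library, with 156 CPM in mono-culture. No clone library reached the lowest KPC1 library, and the log2 fold change was 0.92 ± 0.11 (adjusted p = 6.7e-07). Cct7 was called higher than each of the 7 clones (0.36 ± 0.062), although its lowest KPC1 library, at 222 CPM, lay below the highest clone library at 227 CPM. Of the other subunits, looked up after these values were seen, Cct2 (0.45 ± 0.07), Cct3 (0.26 ± 0.09), Cct5 (0.43 ± 0.08), Cct6a (0.52 ± 0.09) and Cct8 (0.37 ± 0.07) were also called higher, and Tcp1 (0.15 ± 0.07, adjusted p = 0.094) was not. Of 12 cytosolic and mitochondrial heat shock genes, by comparison, 3 were higher and 3 lower, with a median of 0.03. The mitochondrial chaperonin Hspd1 was higher (0.67 ± 0.11, adjusted p = 2.3e-05) and the inducible Hspa1b lower (-0.83 ± 0.17, adjusted p = 0.00035).

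Chchd10, which encodes a protein of the mitochondrial intermembrane space, had the largest fold change among the 5 genes that averaged at least 2 CPM over the 32 co-culture libraries, differed from each clone and had separated libraries. The other 4 were Hspa5, Impdh1, Zfhx4 and Zfat. It was at 10.8, 12.5, 11.1 and 9.01 CPM with KPC1, at 0.607, 1.76 and 5.42 CPM in the lowest, median and highest clone library and at 0.883 CPM in mono-culture. All KPC1 libraries were above all clone libraries, and the log2 fold change was 2.42 ± 0.28 (adjusted p = 3.6e-07). The gene (chr10:75933130-75937747, plus strand) shares 11.4% of its exonic bases with Gm867 and Mmp11 on the other strand. Mmp11 was also higher with KPC1 (0.67 ± 0.10), and since the strand setting of the counting is not given in the sources used here, reads of such partners cannot be told apart.

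Impdh1 encodes the enzyme that commits IMP to guanine nucleotides. It was at 67.2, 58.1, 69.2 and 58 CPM with KPC1 against 36.1, 47.1 and 56.3 CPM in the lowest, median and highest clone library. The groups did not overlap, but the difference was small, at 0.44 ± 0.07 on the log2 scale (adjusted p = 1.5e-05). Impdh2, the main form in dividing cells and looked up after the values were seen, had a log2 fold change of 0.39 ± 0.07 (adjusted p = 5.1e-05). Over 15 genes of nucleotide synthesis 6 were higher and 2 lower, with a median of 0.11, and 1 was lower without any of KPC1 replicates 1 to 3.

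Of the remaining genes higher than each clone, 3 had a median below 1 CPM over the clone libraries. Lsr, a receptor for lipoproteins that also builds junctions where 3 epithelial cells meet, was at 7.64, 4.04, 7.21 and 5.13 CPM with KPC1, at 0, 0.195 and 4.01 CPM in the lowest, median and highest clone library and at 0.0641 CPM in mono-culture. Its lowest KPC1 library barely exceeded the highest clone library, which was of clone M, and its log2 fold change of 4.05 ± 0.35 (adjusted p = 8.4e-09) was the most firmly called of the 14439 genes. Annotated exons of Gm17077 and Gm4673 on the other strand cover 44.7% of its exonic bases (chr7:30957770-30973464, minus strand). Fgf15, a fibroblast growth factor gene, was at 2.58, 1.33, 1.23 and 0.912 CPM with KPC1, at most 0.537 CPM in any clone library and at 0 in mono-culture (3.74 ± 0.45, adjusted p = 8.3e-07). Sptb, which encodes a spectrin of the membrane skeleton, was at 5.69, 1.09, 3.7 and 1.48 CPM against at most 0.778 CPM (3.25 ± 0.37, adjusted p = 2.2e-07). KPC1 libraries exceeded all clone libraries in both genes, at levels near those of lowly expressed genes.

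Of the 17 epithelial markers tested, 3 (Cdh1, Spint1 and Spint2) were higher with KPC1 and none lower, with a median of 0.26. Cdh1, the gene of E-cadherin, was at 44.1, 21.3, 37.3 and 20.8 CPM in KPC1 replicates 1 to 4, and its clone means ran from 0.0304 CPM with M and 5.7 with T to 15 with V and 26.4 with N. KPC1 had the highest mean of the 8 lines (3.15 ± 0.34, adjusted p = 1.4e-07), but replicates 2 and 4 lay inside the clone libraries. Spint2, an epithelial protease inhibitor, was at 10.2, 3.38, 6.22 and 6.73 CPM against 0.0599, 1.68 and 16.7 CPM and lay among the clones (1.82 ± 0.38, adjusted p = 0.00034). The keratin gene Krt8 was at 123, 32.6, 73.7 and 57.8 CPM against 6.35, 89.8 and 227 CPM, with no call (-0.03 ± 0.49, adjusted p = 0.97), and was nearly absent from mono-culture (0.0229 CPM). By clone mean, Lsr was at 1.73 CPM with M, 1.46 with T, 0.92 with E and 0.142 with N, unlike Cdh1, which was lowest with M. Its KPC1 libraries ranked as their epithelial marker sums did (671, 219, 414 and 337 CPM). The libraries of M ranked so too, with Lsr at 0.62, 0.364, 4.01 and 1.94 CPM and sums of 175, 70.9, 606 and 319 CPM. Within E, H, K, N, T and V the orders of Lsr and of the sum differed. The part of tumour-cell RNA in these results was not tested.

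The other genes higher than each clone were Rad52, a DNA recombination gene (17.8, 17.7, 12.9 and 12.1 CPM with KPC1, highest clone library 12.5 CPM, log2 fold change 0.79 ± 0.13), Ltbp4, which encodes a TGF-β-binding matrix protein (0.67 ± 0.10), the Golgi stacking gene Gorasp2 (0.48 ± 0.091), Snhg1 (1.03 ± 0.13) and 1810032O08Rik (1.45 ± 0.15). Snhg1 and 1810032O08Rik are non-coding genes that host small nucleolar RNAs, the latter with Snord1a, Snord1b and Snord1c inside its exons (chr11:116671660-116675799). 1810032O08Rik was at 26.7, 29.9, 14.1 and 20.9 CPM with KPC1 and at 3.97, 8.69 and 16.9 CPM in the lowest, median and highest clone library. Replicate 3 lay inside the clone range and the other KPC1 libraries lay above it. Cxcl1, the last of the 13, is described with the inflammatory genes.

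Among the 19 genes lower than each clone, Zfhx4 and Zfat were the pair that had separated libraries and averaged at least 2 CPM. Zfhx4 encodes a large zinc finger homeobox factor. It was at 42, 68.6, 63.6 and 44 CPM with KPC1, at 74.5, 143 and 364 CPM in the lowest, median and highest clone library and at 177 CPM in mono-culture. All KPC1 libraries were below all clone libraries (-1.45 ± 0.20, adjusted p = 2.7e-06), and clones T, V and H were the nearest. The antisense transcript 2700069I18Rik, whose gene (chr3:5177586-5220841, minus strand) covers the start of Zfhx4 (chr3:5218526-5415857, plus strand) without sharing an exon, was lower too, at 0.58, 0.482, 0.554 and 0.342 against 0.824, 1.6 and 3.54 CPM (-1.84 ± 0.29). Zfat, another zinc finger factor, differed by only -0.34 ± 0.067 on the log2 scale (adjusted p = 0.00018). It was at 17.3, 16.7, 18.5 and 18.1 CPM against 19.8, 22.1 and 28 CPM, and with 18 CPM mono-culture was at the KPC1 level.

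Maf, a transcription factor of the AP-1 superfamily, met the separation without being called against each clone. It was at 12, 17.6, 17.6 and 16.5 CPM with KPC1, at 18.1, 46.5 and 149 CPM in the lowest, median and highest clone library and at 148 CPM in mono-culture. KPC1 lay below every clone library (-1.68 ± 0.19, adjusted p = 2.8e-07), with clone H, at 23.9 CPM, the nearest mean and clone K, at 126 CPM, the farthest.

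Cd34, a sialomucin that marks resting fibroblasts of the vessel adventitia, was at 48.3, 34.9, 41.2 and 43.3 CPM with KPC1, at 44.6, 86.2 and 147 CPM in the lowest, median and highest clone library and at 221 CPM in mono-culture. Its KPC1 values reached into the clone range only with replicate 1, and it was lower than each clone (-1.01 ± 0.15, adjusted p = 5.6e-06). Mme, the gene of the peptidase neprilysin, was at 1.42 to 2.4 CPM with KPC1, at 2.23 to 29.7 CPM over the clone libraries and at 76.7 CPM in mono-culture (-2.25 ± 0.31), and Plin4, which coats lipid droplets, at 1.05 to 4.16, 3 to 33.9 and 47.9 CPM (-2.04 ± 0.31). These genes shared an order in which mono-culture was highest, the clones were between and KPC1 was lowest. Dhx9, an RNA helicase gene, fell from a median of 233 CPM over the clone libraries to 102, 73.8, 145 and 132 CPM (-0.96 ± 0.15), and Smarcc2, which encodes a subunit of the BAF chromatin remodeller, from 274 to 136, 127, 191 and 177 CPM (-0.78 ± 0.11). In both, replicates 3 and 4 overlapped the lowest clone libraries and replicates 1 and 2 did not. The Toll-like receptor gene Tlr2 (-0.57 ± 0.11), the Integrator subunit gene Ints7 (-0.47 ± 0.069) and Paqr8, Nagpa, Angel2, Lrrc49, Tmem19, Slc35e3, Mterfd3, Gm4944 and Gm16675 made up the rest, with log2 fold changes of -2.58 to -0.48.

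Lists of genes for fibroblast states, signalling pathways and cell functions set these genes among others of like role. The count of a list is to be read beside the share of all genes called, 22.3% higher and 18.8% lower, and its median beside 0.0054. Across the 34 lists of pathways and functions, most tested members were called higher with KPC1 in 5 lists (inflammatory, ATF4 targets, tRNA synthetases, ribosome biogenesis and ER chaperones) and lower in 5 (complement, resting fibroblast, matrix proteases, interstitial matrix and Wnt). Such a majority was not kept in every list when 1 KPC1 replicate was left out.

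**Figure D3:**
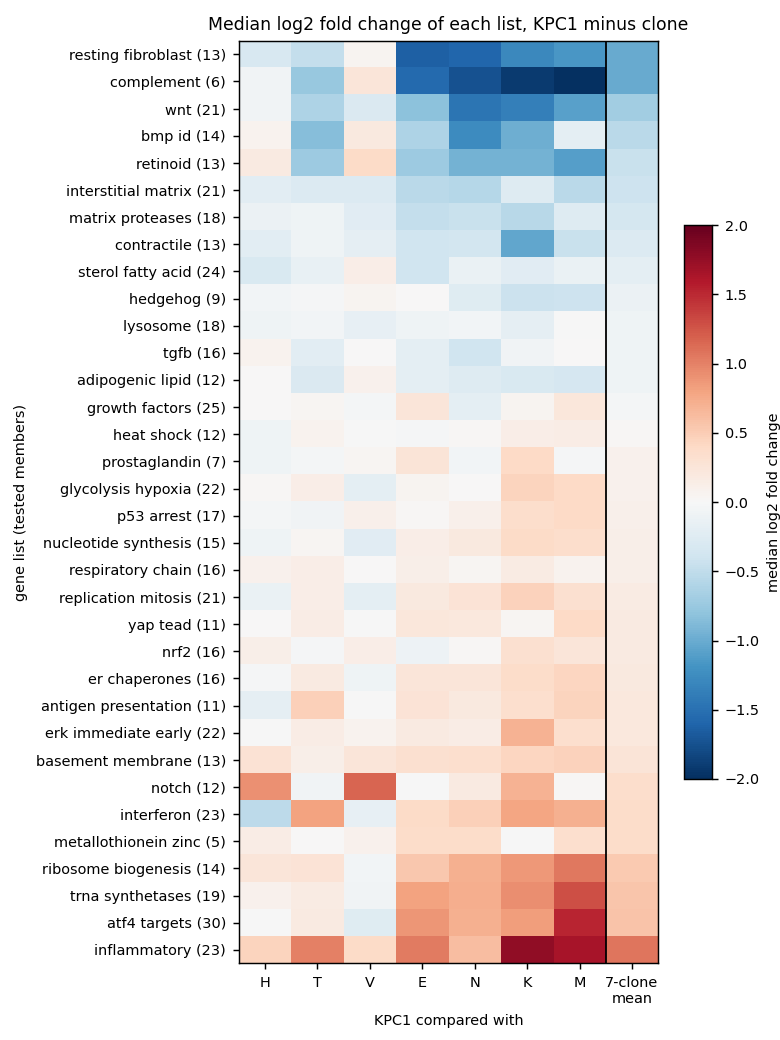
Median log2 fold change of 34 gene lists, KPC1 minus each clone (columns H to M) and minus the mean of the 7 clones (last column), with the number of tested members in brackets and red for higher with KPC1. The inflammatory, ATF4 target, tRNA synthetase and ribosome biogenesis lists head the last column at 1.07, 0.57, 0.56 and 0.53, and the complement and resting fibroblast lists end it at -1.01, while the columns of H and V are pale for most lists.

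Inflammatory genes were the list with the highest median, but much of it came from a single library. Of 23 genes tested, 18 were higher and 1 lower with KPC1, with a median log2 fold change of 1.07, and 12 had a KPC1 mean above all 7 clone means. KPC1 replicate 1 was the highest KPC1 library in 18 of the 23. Without replicate 1, 9 were higher and 1 lower and the median was 0.46. With another KPC1 replicate left out, 17 or 18 were higher. In none of the clones was replicate 1 the library with the highest mean of the list. Replicate 1 also had the highest epithelial marker sum of the 4 (671, 219, 414 and 337 CPM in replicates 1 to 4). Of the inflammatory genes described below, the KPC1 libraries of Cxcl1, Ccl2, Ccl7 and Nfkbia ranked as these sums did. Those of Cxcl10, Il6, Il11, Csf2, Tnfaip3 and Cxcl12 did not. The part of tumour-cell RNA in the inflammatory result was not tested.

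Of the chemokine genes, Cxcl1, which draws neutrophils, was at 292, 5.67, 21.9 and 10.8 CPM in KPC1 replicates 1 to 4 and at 3.24, 8.07 and 26.7 CPM in the lowest, median and highest clone library. Replicate 1 lay far above the clones and the other 3 lay inside their range, so that the log2 fold change of 3.23 ± 0.43 (adjusted p = 2.3e-06) became 0.53 without it (adjusted p = 0.29). Ccl2, which draws monocytes, was at 602, 67.9, 216 and 119.5 CPM against 17.4, 102 and 251 CPM, also with replicate 1 alone above the clones (1.57 ± 0.27, adjusted p = 4e-05, and 0.038 without it). Ccl7, another monocyte chemokine gene, was at 86, 19.8, 41.1 and 28.6 against 3.16, 18.5 and 47.4 CPM (1.5 ± 0.25, adjusted p = 0.0084 without replicate 1). Cxcl10, a chemokine for T cells, was at 70.3, 53.2, 54 and 22 CPM, inside the clone libraries at 4.22, 10.6 and 97.8 CPM, and its KPC1 mean lay below that of clone H (1.71 ± 0.24, adjusted p = 3.2e-06).

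Of the cytokine genes, Il6, the interleukin of the acute phase response, was at 19.2, 11.6, 6.9 and 6.79 CPM with KPC1, 0.85, 4.83 and 12.2 CPM in the lowest, median and highest clone library and 0.493 CPM in mono-culture (1.33 ± 0.22, adjusted p = 2.8e-05, and 0.0045 without replicate 1). Replicate 1 lay above all clone libraries and the others among them, near clone V at 10.7 CPM. Il11, an interleukin of the same family, was at 1.79, 3.86, 1.54 and 1.94 CPM against 0.248, 0.846 and 2.49 CPM, and its KPC1 mean was above every clone mean (1.39 ± 0.29, adjusted p = 0.0011 without replicate 1). Csf2, the gene of the growth factor GM-CSF, was at 6.7, 3.62, 2.28 and 1.2 CPM against 0, 0.877 and 2.29 CPM, with replicates 1 and 2 above all clone libraries (2.53 ± 0.42, adjusted p = 0.0027 without replicate 1). The feedback inhibitors of NF-κB, Nfkbia (168, 36.2, 50.7 and 44.9 CPM) and Tnfaip3 (91.3, 24.2, 24.3 and 18.2 CPM), were called with all 4 libraries (0.82 ± 0.19 and 1.18 ± 0.23) and not without replicate 1 (adjusted p = 0.82 and 0.17). Cxcl12, the chemokine of resting stroma, was the member lower with KPC1, at 49.3, 37.3, 50.6 and 65.8 CPM against 63.8, 212 and 743 CPM and 1481 CPM in mono-culture (-2.06 ± 0.33, adjusted p = 2.4e-05). Only replicate 4 reached into the clone range.

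**Figure D4:**
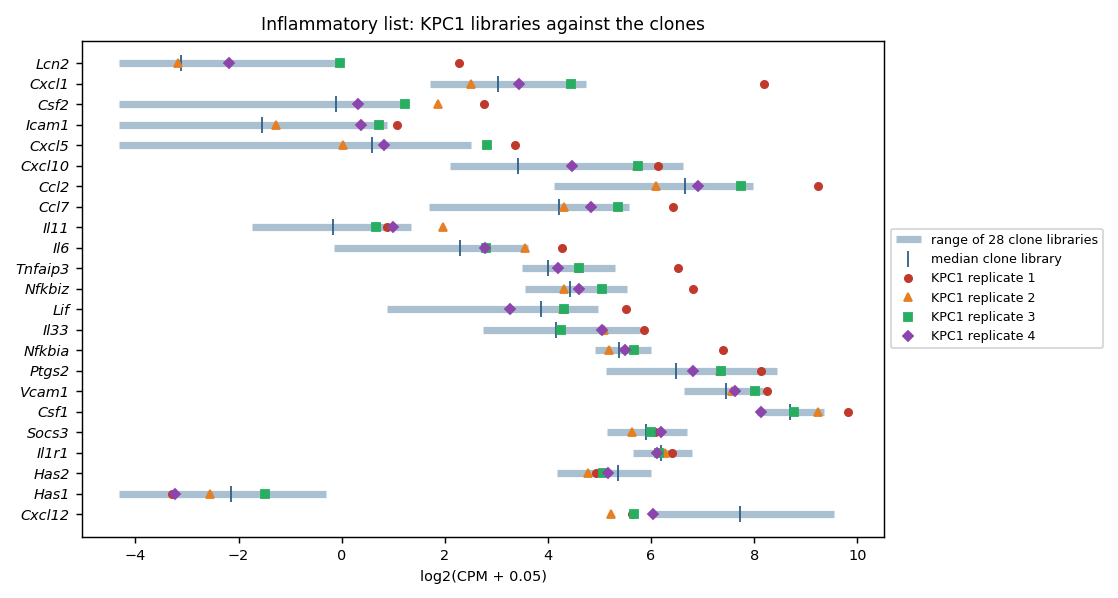
Level of the 23 inflammatory genes on a log2(CPM + 0.05) scale in the 4 KPC1 libraries (symbols) over the range of the 28 clone libraries (grey-blue bar) with their median (tick), ordered by fold change. Replicate 1 (red circles) lies at or beyond the right end of the bar for most genes in the upper part, with Cxcl1 at 292 CPM, while the other KPC1 replicates mostly lie within the bars.

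Promoters of the list were searched for the κB site of NF-κB, searched on both strands as GGG and TTTCC with any 2 bases between them, which was found in 5 of 17 members with a window (29.4%) and in 2.11% of tested genes with a window. The members were Il6, Cxcl1, Csf1, Nfkbia and Tnfaip3. Among genes with a window that were called higher with KPC1, 2.62% held the site. Replicate 1 was the highest KPC1 library in 18 of the 23 genes of the list, carriers of the site or not. The windows of Cxcl1 (chr5:90891136-90891203, plus strand) and Nfkbia (chr12:55492648-55492696, minus strand) are shown, with matches in capitals, because both genes were highest in the same KPC1 library:
Cxcl1: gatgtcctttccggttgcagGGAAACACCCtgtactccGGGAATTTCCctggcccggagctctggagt
Nfkbia: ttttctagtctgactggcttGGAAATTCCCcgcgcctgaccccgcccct

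A match is a description of the letters and not of binding.

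Genes of the ATF4 programme were higher with KPC1 than with clones E, K, M and N, but not than with H and V. Of 30 targets tested, 22 were higher and 1 lower against the mean of the clones, with a median of 0.57, and 5 lay above all clone means: Trib3, Nupr1, Slc7a11, Cebpb and Cebpg. Against single clones, the median was 1.53 for M, 0.88 for E, 0.83 for K, 0.72 for N, 0.18 for T, -0.01 for H and -0.24 for V, with 27, 22, 25, 20, 2, 0 and 0 members higher. Trib3, an inhibitor of ATF4 itself, was at 211, 271, 157 and 129.7 CPM with KPC1, at 18.1, 78 and 191 CPM in the lowest, median and highest clone library and at 72.6 CPM in mono-culture (1.31 ± 0.17, adjusted p = 1.3e-06). Replicates 1 and 2 lay above all clone libraries, and clone V had the nearest mean. Asns, the asparagine synthetase gene, was at 577, 715, 467 and 417 CPM against 86.9, 276 and 671 CPM (1.06 ± 0.15, adjusted p = 4.6e-06). Its mean lay among those of the clones, below V at 558 CPM and far above M at 95.1 CPM. Nupr1, a stress-induced chromatin factor gene, was at 163, 178, 161 and 129 CPM against 31.2, 77.3 and 179 CPM and was called against 5 clones (1.01 ± 0.13, adjusted p = 9.3e-07). Ddit3, the gene of the stress factor CHOP, was at 258, 469.8, 249 and 240.2 CPM against 58.2, 127 and 400.2 CPM (1.11 ± 0.14), and Gdf15, a secreted stress cytokine, at 140.0, 153, 120.3 and 109.6 against 17.1, 42.1 and 207 CPM (1.28 ± 0.18). In both, KPC1 lay among the clones with V above it. Atf5 was the member that was lower, at 68.4, 97.1, 71 and 70.4 against 57, 124 and 262 CPM (-0.71 ± 0.18, adjusted p = 0.0027).

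The composite site of C/EBP and ATF factors, TGATGNAA on both strands, was found in 9 of 27 targets with a window (33.3%) and in 2.81% of tested genes with a window. Among genes with a window that were called higher with KPC1, the share was 3.49%. The windows of Asns (chr6:7693210-7693252, minus strand), which lay among the clones, and of Nupr1 (chr7:126625553-126625600, minus strand), which lay above their means, are shown with the site in capitals:
Asns: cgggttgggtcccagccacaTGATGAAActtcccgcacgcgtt
Nupr1: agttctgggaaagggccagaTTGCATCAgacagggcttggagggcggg

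The enzymes that charge tRNAs moved in the same direction, with 16 of 19 higher and none lower (median 0.56). Iars, the isoleucyl-tRNA synthetase gene, was at 460.0, 490.1, 351 and 250.5 CPM with KPC1 and 109, 210.4 and 403 CPM in the lowest, median and highest clone library (0.82 ± 0.14, adjusted p = 4.3e-05). Replicates 1 and 2 were above all clone libraries and 3 and 4 were not. Sars, for serine, was at 764, 849, 714 and 684 against 255, 450.0 and 886 CPM (0.70 ± 0.074, adjusted p = 9.9e-08). The list was again unlike E, K, M and N (medians of 0.81, 0.93, 1.29 and 0.72) and near to H, T and V (0.09, 0.16 and -0.06). Farsa (0.045 ± 0.061), Hars (0.046 ± 0.07) and Kars (0.11 ± 0.074) did not pass the test.

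Ribosome biogenesis genes were higher in 13 of 14 cases with none lower (median 0.53). The list's medians against H, T and V were 0.24, 0.28 and -0.05. Against these clones 1, 0 and 0 of the genes were higher, and against E, K, M and N 11, 14, 14 and 13. Myc, the transcription factor that drives them, was at 386, 428, 280.5 and 222 CPM with KPC1, 69.2, 186 and 388 CPM in the lowest, median and highest clone library and 63.8 CPM in mono-culture (0.96 ± 0.16, adjusted p = 3.6e-05). Its mean lay above every clone mean, with replicate 2 above and the others among the clone libraries. Npm1, which encodes the nucleolar protein nucleophosmin, was at 1568, 1383, 1412 and 1538 CPM against 666, 1095 and 1369.6 CPM (0.50 ± 0.073, adjusted p = 5.5e-06), and all its KPC1 libraries lay above all clone libraries. Fbl, the methyltransferase of box C/D small nucleolar RNAs, was at 69.1, 76.8, 56.6 and 57.4 against 25.8, 42.5 and 65.1 CPM and was called against 5 clones (0.65 ± 0.089). Replicate 4 was the lowest KPC1 library in Fbl's neighbours on the list Ncl (1191, 1188, 1121 and 891 CPM), Myc, Nolc1 (263, 262, 233 and 191 CPM) and Ddx21 (244, 331, 194 and 153 CPM).

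**Figure D5:**
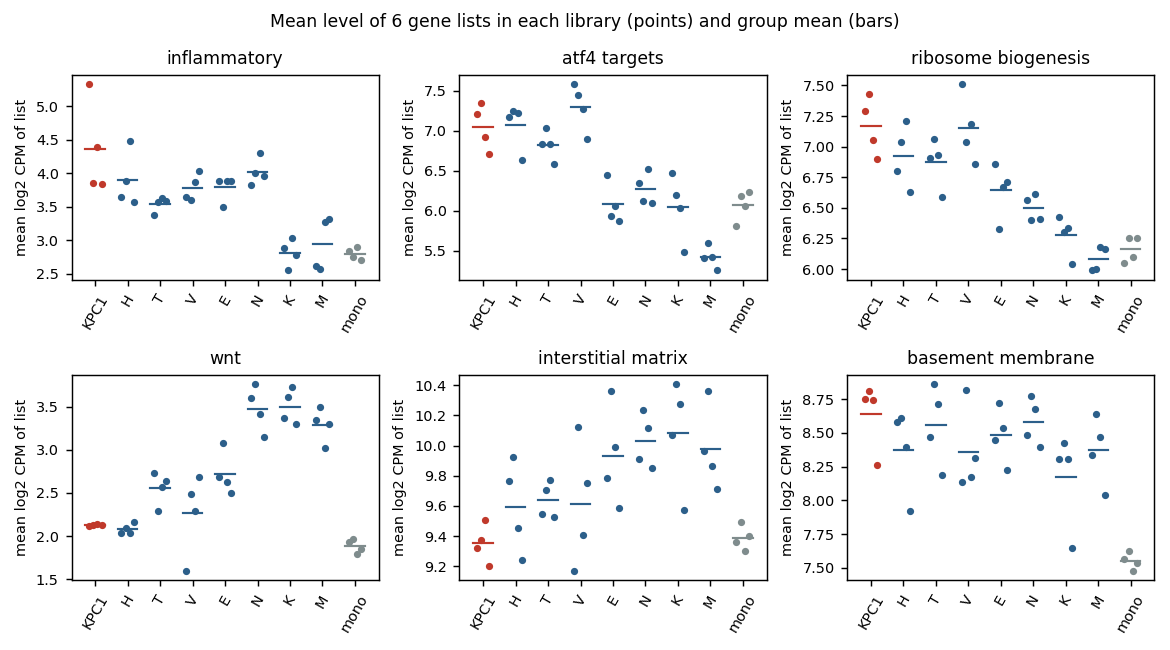
Mean log2 CPM of 6 gene lists in each library (points) with the group mean (bars), for KPC1 (red), the 7 clones (blue) and mono-culture (grey). For the ATF4 and ribosome biogenesis lists KPC1 lies nearer to clones H, T and V than to E, N, K and M, for the Wnt list it lies level with H and below the 4 libraries of T, and for the inflammatory list replicate 1 is the highest of the KPC1 points.

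Targets of ERK signalling and its growth factor ligands were higher for part of each list. Of 22 immediate early and ERK feedback genes, 9 were higher and 2 lower (median 0.22), and 8 lay above all clone means. Without KPC1 replicate 1, 3 were higher, namely Fosl1, Etv4 and Dusp4, and without clone K, 5 were. The 2 lower became 1 without replicate 2 and 0 without replicate 4. The site of AP-1, searched in promoters on both strands as TGANTCA, was found in 0 of the 14 members with a window and in 6.42% of tested genes with a window. Fosl1, an AP-1 subunit gene, was at 206, 217, 157 and 103 CPM with KPC1, at 16.8, 81.2 and 171 CPM in the lowest, median and highest clone library and at 17.7 CPM in mono-culture (1.26 ± 0.18, adjusted p = 4.6e-06). Its replicates 1 and 2 lay above the clone libraries, and exons of Ccdc85b on the other strand cover 57.2% of its own. Etv4, an ETS factor gene induced by ERK, was at 144, 119.6, 109 and 81 against 16.4, 68.1 and 109.6 CPM (1.02 ± 0.15, adjusted p = 9.5e-06), and Dusp4, an ERK phosphatase gene, at 276, 218, 232 and 152 against 50.3, 134 and 293 CPM (0.74 ± 0.15). Fos itself was at 94.5, 57, 62.3 and 272 CPM against 18, 201 and 912 CPM, with no call (-0.85 ± 0.57, adjusted p = 0.24).

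Among ligands, the EGF receptor ligands were higher with KPC1. Areg, the amphiregulin gene, was at 39.6, 23.9, 13.7 and 12.7 CPM with KPC1, at 0.124, 6.35 and 27.9 CPM in the lowest, median and highest clone library and at 0.155 CPM in mono-culture (2.62 ± 0.33, adjusted p = 1.2e-06). Only replicate 1 was above all clone libraries, and the KPC1 mean was above all clone means. Hbegf (1.03 ± 0.21), Ereg (1.04 ± 0.22), Btc (0.91 ± 0.17) and Tgfa (0.94 ± 0.29) were also called, with KPC1 among the clones in each. Without replicate 1, Tgfa was not (adjusted p = 0.32). Igf1, the insulin-like growth factor gene, was lower, at 16.9, 21.9, 37.8 and 44.8 CPM against 29.1, 98 and 266 CPM (-1.69 ± 0.27, adjusted p = 1.6e-05). KPC1 lay below every clone mean, and replicates 1 and 2 below every clone library. Fgf2 was lower too, at 4.06, 6.21, 6.65 and 8.1 against 6.71, 10.5 and 20.5 CPM (-0.82 ± 0.19, adjusted p = 0.00096). Over the 25 growth factor genes tested 10 were higher and 6 lower, with a median of -0.04. The 10 became 6 without replicate 1, and the 6 became 3 without replicate 2 or replicate 4 and 10 without clone V.

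Notch genes differed from the groups above in which clones KPC1 resembled. Of 12 tested, 5 were higher and 1 lower (median 0.35), and 3 were higher without KPC1 replicate 1. Hey1, a transcriptional target of Notch, was at 16.1, 13.2, 12.2 and 15.3 CPM with KPC1, at 1.79, 6.09 and 11.2 CPM in the lowest, median and highest clone library and at 0.24 CPM in mono-culture, so that every KPC1 library lay above every clone library (1.41 ± 0.15, adjusted p = 9.9e-08). The nearest clones were E at 9.91, T at 9.42 and M at 7.78 CPM, while H and V, near to KPC1 in most genes, were at 3.28 and 2.53 CPM. Jag2, a Notch ligand gene, was at 12.2, 5.79, 10.8 and 6.56 CPM against 0.36, 1.8 and 8.14 CPM and was called against 5 clones (2.28 ± 0.26, adjusted p = 2.9e-07). Nrarp, a feedback inhibitor gene of the pathway, was at 19.2, 8.74, 12.3 and 10.7 against 0.455, 4.39 and 14.6 CPM (1.56 ± 0.32, adjusted p = 0.0003). Both had KPC1 means above all clone means, and both were low in mono-culture, at 0.614 and 0.337 CPM. In both, the KPC1 libraries ranked as their epithelial marker sums did (671, 219, 414 and 337 CPM), and those of Hey1 did not. The part of tumour-cell RNA in these levels was not tested. Annotated exons of Gm38287 on the other strand cover 79.4% of the exonic bases of Nrarp, and reads of the pair cannot be told apart. Jag1 (0.63 ± 0.18) and Heyl (0.94 ± 0.33) were called with all libraries and not without replicate 1, and the receptor gene Notch2 was lower (-0.44 ± 0.14, adjusted p = 0.012).

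Of 13 basement membrane genes 6 were higher and 2 lower (median 0.25), and 7 lay above all 7 clone means, against 16.1% of all genes. The 2 lower became 1 without KPC1 replicate 1 or replicate 4, and against clone T no member was called. Col18a1, the collagen XVIII gene, was at 1097, 878, 845 and 526 CPM with KPC1, at 152, 417 and 746 CPM in the lowest, median and highest clone library and at 112 CPM in mono-culture (1.03 ± 0.15, adjusted p = 8.1e-06). Replicates 1 to 3 were above all clone libraries, and replicate 4 lay within them. Col15a1 was at 299, 349, 293 and 182 CPM against 84, 135 and 292 CPM (0.97 ± 0.16, adjusted p = 3.7e-05), again with replicate 4 the lowest of the KPC1 libraries. Col4a1 and Col4a2, the chains of the main collagen IV, were at 2044, 2168, 2276 and 1609 CPM and 1462, 1495, 1656 and 1047 CPM with KPC1 and at medians of 1349 and 999 CPM over the clone libraries (0.61 ± 0.14 and 0.56 ± 0.16). The laminin genes split. Lama5 (0.67 ± 0.16) and Lamb1 (0.40 ± 0.14) were higher, and Lama2 (-0.79 ± 0.24) and Lamb2 (-0.52 ± 0.13) lower. Lamb1 and Lama2 did not pass the test without KPC1 replicate 1 (adjusted p = 0.18 and 0.06).

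Of 21 genes of the interstitial matrix none was higher and 11 were lower (median -0.41), and 8 lay below all clone means. Against E and N 11 members were lower, against K and M 10, against V 4 and against H and T 1 each. The list's medians against H, T and V were -0.20, -0.27 and -0.27. Col1a1, a chain of collagen I, was at 4431, 3898, 4684 and 3916 CPM with KPC1 and at 3707, 6287 and 12586 CPM in the lowest, median and highest clone library (-0.69 ± 0.16, adjusted p = 0.0011). Its KPC1 values lay at the low end of the clones and below every clone mean. Col1a2 was at 2622, 2494, 3348 and 2689 against 3034, 4739 and 7691 CPM (-0.79 ± 0.13), with only replicate 3 inside the clone range, and Col3a1 at 2137, 2362, 3290.3 and 2995 against 1601, 4443 and 8613 CPM (-0.76 ± 0.18). Lox, which encodes the enzyme that crosslinks collagen and elastin, was at 335, 572, 596 and 709 CPM against 587, 1522 and 4922 CPM (-1.58 ± 0.24, adjusted p = 1.3e-05). Replicates 1 and 2 lay below all clone libraries, and clone K had the highest mean at 4407 CPM. Postn (-0.86 ± 0.19), Thbs1 (-0.86 ± 0.19) and Eln (-2.03 ± 0.42) were lower as well, the last with KPC1 above clone H. Fibronectin, by Fn1, was at 9361, 8475, 7749.9 and 4855 CPM against 4329, 7958 and 12242 CPM and showed no difference that passed the test (-0.053 ± 0.20, adjusted p = 0.86).

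Enzymes that remodel the matrix split, with 5 of 18 genes higher and 10 lower (median -0.35). Without KPC1 replicate 1, 3 were higher and 5 lower, and without replicate 4, 6 were lower. Mmp3, the stromelysin gene, was at 0.738, 0.362, 0.123 and 0.798 CPM with KPC1 and at 0.0545, 4.34 and 36.5 CPM in the lowest, median and highest clone library (-2.77 ± 0.47, adjusted p = 4.4e-05). It was as low with clone V, at 0.47 CPM. Adamts5, an aggrecanase gene, was at 74.9, 93.9, 148 and 126 against 103, 251 and 549 CPM and 842 CPM in mono-culture, with KPC1 below every clone mean (-1.31 ± 0.22, adjusted p = 3.8e-05). Plaur, the urokinase receptor gene, was higher at 73.8, 66.1, 52.7 and 43.5 against 13.4, 33.6 and 69.6 CPM (0.83 ± 0.12, adjusted p = 5.8e-06).

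Contractile genes gave 2 higher and 5 lower of 13 (median -0.28), with 1 higher without KPC1 replicate 3 or replicate 4. Acta2, the smooth muscle actin gene that marks contractile fibroblasts, was at 237, 278, 391 and 322 CPM with KPC1, inside the clones at 143, 325 and 1097 CPM, and did not pass the test (-0.28 ± 0.29, adjusted p = 0.47). Myl9, a myosin light chain gene, was lower, at 25.3, 25.7, 37.3 and 41.3 against 32.6, 63.3 and 282 CPM (-1.29 ± 0.25, adjusted p = 0.00019). Smtn, the smoothelin gene, was higher, at 249, 198, 190.1 and 168 against 58.6, 100 and 197 CPM (0.96 ± 0.10, adjusted p = 6.7e-08). Of 16 genes of TGF-β signalling 5 were higher and 7 lower (median -0.08), and 3 were higher without KPC1 replicate 1 and 2 without clone M. The ligand gene Tgfb1 was higher than 6 clones, at 184, 136, 142 and 144 against 92.2, 114 and 149 CPM (0.40 ± 0.074, adjusted p = 9.2e-05), and the receptor gene Tgfbr2 was lower than 5, at 78.7, 88.8, 112 and 82.8 against 88.8, 171 and 229 CPM (-0.78 ± 0.12, adjusted p = 1.5e-05).

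Genes of the resting fibroblast were lower with KPC1 in 9 of 13 cases and higher in 1 (median -1.01). Dpt, which encodes dermatopontin, was at 1.69, 2.71, 3.27 and 5.13 CPM with KPC1, at 3.54, 15.6 and 33.9 CPM in the lowest, median and highest clone library and at 166 CPM in mono-culture (-2.08 ± 0.33, adjusted p = 2.1e-05). Replicates 1 to 3 lay below all clone libraries. Figf, the VEGF-D gene, was at 10.3, 10.9, 21.9 and 20.3 against 9.51, 42.5 and 91.2 CPM and 184 CPM in mono-culture (-1.32 ± 0.23). By clone, the list's median was -1.63 against E, -1.59 against N, -1.29 against K, -1.17 against M, -0.47 against T, -0.32 against H and 0.06 against V, so KPC1 shared its low level with V. Complement genes, also made by resting stroma, were lower in 5 of 6 cases with none higher (median -1.01). Against H and V none was lower (medians -0.07 and 0.25), and against T 3 were (median -0.76). C1s was at 44.5, 57.3, 59.3 and 79.4 against 20.7, 169 and 298 CPM (-1.17 ± 0.22, adjusted p = 0.00012), and only C4b lay below all clone means.

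Wnt pathway genes were lower in 11 of 21 cases and higher in 1 (median -0.69). The 11 became 9, 10, 8 and 8 without KPC1 replicates 1, 2, 3 and 4, and 8 without clone K or clone M. Against H none was lower. Axin2, the standard target of β-catenin, was at 4.38, 3.2, 5.24 and 4.39 CPM with KPC1, at 4.93, 17.2 and 55.2 CPM in the lowest, median and highest clone library and at 0.68 CPM in mono-culture (-2.11 ± 0.35, adjusted p = 3.4e-05). KPC1 lay below every clone mean and above mono-culture, with clone H the nearest at 8.19 CPM. Nkd2, a feedback inhibitor gene, was at 3.85, 3.56, 4.31 and 4.56 against 2.54, 21.1 and 132 CPM (-2.56 ± 0.45, adjusted p = 6.3e-05). Notum, a secreted inhibitor gene, was at 1.11, 1.09, 0.986 and 1.08 against 0.458, 3.03 and 12 CPM (-1.6 ± 0.32) and lay among the clones. Wnt10b, a ligand gene, was the member that was higher, at 3.27, 2.23, 2.65 and 1.14 against 0.17, 0.607 and 4.08 CPM (1.62 ± 0.31, adjusted p = 0.00012). The medians against H and V were -0.08 and -0.29, and those against K, M and N -1.37, -1.09 and -1.47.

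Of 14 genes of BMP signalling 6 were lower and 1 higher (median -0.54). By clone, the list's median ran from -1.26 against N to 0.20 against V. Against M it was -0.20, where that of the Wnt list was -1.09. Id3, which encodes an inhibitor of helix-loop-helix factors, was at 18.3, 9.83, 22.8 and 27.7 CPM with KPC1 and at 11.6, 94.5 and 273 CPM in the lowest, median and highest clone library (-2.11 ± 0.37, adjusted p = 5.4e-05). The same held for Id2 (-2.24 ± 0.45) and Id4 (-1.76 ± 0.35), and in all of them clone V was as low as KPC1 or lower. In the hedgehog list 2 of 9 were higher and 3 lower, with 1 higher without KPC1 replicate 1 or replicate 2. Gli1, the target gene, was higher (16.8, 20.2, 16.8 and 11.6 against 1.3, 8.59 and 32.5 CPM, 1.2 ± 0.21, adjusted p = 4.5e-05), and Gli2 (-0.84 ± 0.17), Gli3 (-0.46 ± 0.11) and the receptor gene Smo (-0.43 ± 0.065) lay below all clone means.

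Genes of growth arrest also differed, with 6 of 17 of the p53 and cell cycle inhibitor list higher and 5 lower (median 0.10). Against H and V no member was called, and against T 1 was lower. Cdkn2a, which encodes the cell cycle inhibitor INK4A and the p53 activator ARF, was at 289.7, 302, 275 and 308 CPM with KPC1, at 304, 494 and 1207 CPM in the lowest, median and highest clone library and at 607 CPM in mono-culture (-0.89 ± 0.13, adjusted p = 7.4e-06). Its neighbour Cdkn2b was at 145, 118, 108 and 111 against 82.4, 225 and 545 CPM (-0.88 ± 0.18). Both lay below every clone mean, and for Cdkn2a replicates 1 to 3 were below every clone library. The p53 targets Bbc3 (0.88 ± 0.14), Aen (0.71 ± 0.16) and Cdkn1a (0.50 ± 0.16) were higher, and Mdm2 (0.10 ± 0.10, adjusted p = 0.46) was not called.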

How the data were processed

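Poly(A) RNA (200 ng) from sorted fibroblasts was made into strand-specific libraries with 14 PCR cycles and read as 76 bp pairs on an Illumina NextSeq instrument, per the labels. The submitters' processing notes name STAR, featureCounts, edgeR and mm10. Versions, annotation and strand setting are not given in the sources used here. The authors deposited whole-number read counts for 39017 genes, not normalized, and an RPKM table for 37746 genes, which served for an alternative only. Genes that passed edgeR's expression filter (14439) were scaled by TMM and fitted over the 36 libraries with edgeR 4.0.16 (R 4.3.3) by its robust quasi-likelihood test. Contrasts set KPC1 against the mean of the 7 clone coefficients and against each clone, and p-values were adjusted over all genes by Benjamini-Hochberg with a threshold of 0.05. The SE of a log2 fold change was its size over the square root of F. The fit was tested on simulated data. A KPC1 mean beyond all clone means refers to means of log2 CPM with a prior count of 1. The members, the 43 gene lists and the rule for named genes were chosen with earlier results of these data known. By that rule a gene averaged at least 2 CPM over the co-cultures, was called against the mean and each clone with 1 sign and had 4 KPC1 libraries beyond all 28 clone libraries, and up to 4 called members of a list with the largest absolute fold change were added. The other genes named were chosen after their values were seen. Alternatives were DESeq2 1.42.0, other scaling, filters and thresholds, limma 3.58.1 on log2(RPKM + 1) and log2(RPKM + 0.1), a replicate block, counts summed per line and leaving out libraries or clones. Some genes of the lists entered the counts and medians but are not reported here by name. No pair of KPC1 libraries was a duplicate by a chi-square test of counts (19 or more per degree of freedom).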

Additional observations from a re-analysis of the deposited data

Results flagged for a closer look

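In 14 of 246 sets of 4 KPC1 libraries 1 value stood apart from the other 3, with a gap to the nearest of them, divided by the whole range, above Dixon's 95% critical value for 4 samples. Chance gives about 1 in 20 such sets, and 13 of the 14 are given. Values are log2 CPM, with the others' range after the value that stood apart.

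Replicate 2 was low in the sterol and fatty acid list mean (6.75 against 7.55 to 7.62, ratio 0.923) and in its member Sqle, the squalene epoxidase gene of cholesterol synthesis (6.33 against 7.41 to 7.57, ratio 0.877). It was also low in Hsp90ab1 (11.42 against 11.90 to 11.99, ratio 0.850) and Slc35e2 (4.69 against 4.75 to 4.76, ratio 0.867), and was the only KPC1 library with reads of Igfbp5 (ratio 1). Replicate 4 was low in the basement membrane list mean (8.26 against 8.75 to 8.81, ratio 0.887), as it was in 6 of the 7 clones, and in the cholesterol transporter gene Npc1 (6.90 against 7.26 to 7.29, ratio 0.922). It was high in the respiratory chain list mean (6.80 against 6.45 to 6.48, ratio 0.903), where replicate 4 was the highest library in 7 of the 8 lines, and in Ddx3y (7.16 against 6.86 to 6.90, ratio 0.864). Replicate 1 was high in Aldh1a3, a retinaldehyde dehydrogenase gene (3.64 against 1.18 to 1.33, ratio 0.942), and low in Maf (3.59 against 4.05 to 4.14, ratio 0.836) and Rrm2 (6.55 against 6.66 to 6.66, ratio 0.966). Replicate 3 was low in Snhg1 (6.05 against 6.79 to 6.85, ratio 0.928).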

How the results depend on the processing

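The count of 5929 genes called against the mean of the clones was within 1.5 times its value under most of the alternatives (DESeq2 6035, no scaling 5702, limma on RPKM + 1 5699), and ran from 4378 to 6164 when 1 library was left out. It became 901 with a minimum change of 2-fold and 0 with counts summed per line, where each clone is 1 value (16892 tested, 696 at an unadjusted p under 0.05). The share of called genes that were higher was 54.2%, but 46.1% with limma on RPKM + 1, 45.6% with RPKM + 0.1 and 48.7% with no scaling. The 32 genes beyond each clone were less steady, with a range of 3 to 81 when 1 library was left out, 70 with DESeq2, 12 with no filter, 111 at an adjusted p under 0.1, 9 with a minimum of 2-fold and 15 with the co-culture libraries alone, and 95, 21, 81 and 88 without clones H, M, T and V. The cause was not tested, except that a clone left out leaves fewer comparisons to pass. With a replicate block the counts were 6691 and 89. No label says that a number marks a shared culture or day, and the 28 correlations of same-numbered deviations ran from -0.41 to 0.67, so that not every pair was over 0.1 and the numbers were not taken to pair the samples. Some sharing is seen in the data, since 17 of the 28 were over 0.1 (median 0.14, and -0.012 over other numbers), 3 of 4 KPC1 libraries correlated best with their own number, and replicate 4 was lowest in the ATF4 list in 8 of 8 lines. Whether a batch lies behind the numbers was not tested. Among named genes, 9552 values kept direction and side of the threshold and 350 kept direction but lost the call. Of the list medians 8 moved by over 1 SD, in the BMP, Wnt and growth factor lists, and the Wnt median was -0.46 with limma on RPKM + 1 and -1.03 without clone H. With at least 10 counts required in every library, fewer genes were tested, and 11 inflammatory genes and 1 Notch gene were called higher and 3 complement genes and 2 retinoid genes lower.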

Other observations

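Cholesterol and retinoid genes and the interferon response were not described above. Of 24 genes of sterol and fatty acid synthesis 7 were lower with KPC1 and none higher (median log2 fold change -0.20). Mvk, the mevalonate kinase gene, was at 18.1, 11.8, 19.96 and 19.6 CPM with KPC1, at 13.4, 33.4 and 63.8 CPM in the lowest, median and highest clone library and at 85.1 CPM in mono-culture (-0.95 ± 0.14, edgeR adjusted p = 4.6e-06). KPC1 lay among the clones, with V the lowest of them at 15.7 CPM. Most of the list's fall rested on replicate 2, without which 2 were lower and the median was 0.01. Without clone K 2 were lower, without clone E 3, and 4 when any of 10 single clone libraries was left out (E replicates 1 and 2, H 1, K 3, M 1 and 2, N 1 and 3, T 1 and V 4).

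Genes of the vitamin A pathway were lower for 5 of 13 and higher for 2 (median -0.45), with none higher without KPC1 replicate 1. The medians against E, K, M, N and T were -0.73, -0.94, -1.10, -0.95 and -0.73. Against V 4 members were higher and 2 lower (median 0.39), and against H 2 higher and 1 lower (median 0.17). Stra6, the retinol uptake receptor gene, was at 4.27, 2.29, 2.9 and 2.62 CPM with KPC1 and at 1.73, 9.53 and 36.9 CPM in the lowest, median and highest clone library, below every clone mean (-1.83 ± 0.39, edgeR adjusted p = 0.00043). Aldh1a1, which makes retinoic acid, was at 0.633, 0.603, 0.678 and 0.741 against 0.359, 2.03 and 12 CPM (-1.94 ± 0.34, adjusted p = 5.6e-05), inside the clone libraries but below every clone mean. Aldh1a3 was higher with all libraries (1.91 ± 0.34, adjusted p = 6.7e-05), and its adjusted p was 0.076 without replicate 1.

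Of 23 interferon-induced genes 4 were higher with KPC1 and none lower (median 0.36), namely Rsad2, Ifi44, Ifih1 and Ddx58, and none lay beyond all clone means. Rsad2, the viperin gene, was at 7.33, 13.3, 14.3 and 5.59 CPM against 0.955, 2.97 and 25.7 CPM and 15.3 CPM in mono-culture (1.23 ± 0.27, edgeR adjusted p = 0.00061). Clone H was the highest clone at 16.2 CPM and lay above KPC1. Replicate 3 was the highest KPC1 library in 21 of the 23. The genes called higher became 1, 2 and 8 without replicate 2, replicate 3 and clone H, and 2 without clone K or clone M. With clone H, clone T, clone V or KPC1 replicate 4 left out, 1 gene was lower.

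Antioxidant genes of NRF2 gave 6 higher and none lower of 16 (median 0.18), but 3 were lower without KPC1 replicate 4, 2 were lower without clone V, and the median was 0.10 without replicate 3. Txnrd1, the thioredoxin reductase gene, was at 344, 299, 314 and 339.6 CPM with KPC1 against 156, 213 and 344 CPM (0.51 ± 0.07, edgeR adjusted p = 2.3e-06), and Gclc, which starts glutathione synthesis, at 70.1, 56.6, 63.8 and 69.2 against 33.4, 45.6 and 64.5 CPM (0.49 ± 0.10, adjusted p = 0.00017). In both, the KPC1 mean was above every clone mean. The remaining lists gave 6 higher and 1 lower of 22 for glycolysis and hypoxia (median 0.09), 6 and 1 of 21 for replication and mitosis (0.17, with 3 higher without replicate 4), 6 and none of 16 for the respiratory chain (0.12, with 2 higher without replicate 1, replicate 4 or clone K), 3 and 4 of 18 for lysosomal genes (-0.08, with 2 lower without replicate 1 or clone K), 4 and 1 of 11 for antigen presentation (0.21, with 2 higher without replicate 2 or clone M), 3 and 1 of 11 for YAP targets (0.18, with none higher without replicate 2 or clone M and 6 without replicate 4), 2 and none of 5 for metallothioneins (0.37, with 1 without replicate 1 or clone K), 1 and 3 of 12 for adipogenic genes (-0.08) and 1 and 2 of 7 for prostaglandin genes (0.09). Of the marker lists not given above, endothelial markers gave 1 higher and 1 lower, mural markers 2 and 1, acinar and Schwann cell markers none and 1 each, and macrophage and mesothelial markers no call.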
